A study of Mus musculus with 6 samples.

Results

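The collagen and laminin genes are the 55 genes of the deposited table whose mouse symbol has the form of a collagen chain (Col, a number, a and a number) or of a laminin chain (Lama, Lamb or Lamc and a number), out of 57508 genes listed. Collagens gave 44 of them and laminins 11. By class, 11 were fibrillar collagens, 17 were basement membrane genes (6 chains of collagen IV and the 11 laminins), and 27 were other collagens. They were measured by RNA sequencing of KPC1199, a mouse line whose label gives the cell type as pancreatic tumor cells, in a study of what ACSL5, an enzyme that activates long-chain fatty acids, does in pancreatic ductal adenocarcinoma. One group of 3 libraries has the genotype WT. The other group of 3 has the genotype ACSL5 knockdown, although the titles of these libraries say KO. Both groups have library names that start with siACSL5, continued by CY3 in WT and by a number in the knockdown, and the labels do not explain these codes, give a time point, or say whether the libraries of a group came from separate cultures. The p-values therefore measure the spread between these libraries, which may be technical.

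Collagens are triple-helical proteins assembled from 3 chains. The fibrillar types I, III and V build the fibrils of the interstitial matrix, and in pancreatic tumours most of this matrix is known to come from fibroblasts and stellate cells. Epithelial cells sit on a basement membrane, a sheet in which a laminin network, made of trimers with 1 alpha, 1 beta and 1 gamma chain, and a collagen IV network are joined by nidogens and heparan sulphate proteoglycans.

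In these cells laminin chains and Col18a1, a basement membrane collagen, were the most abundant members per length. Once WT replicate 1 was left out, the knockdown libraries held more RNA of the collagen IV chains Col4a1 and Col4a2, the laminin chain Lamb2, and Col5a1, Col27a1 and Col7a1. They held less of Col4a5, Lamb1, Col18a1, Col3a1, Col16a1 and Col8a1. Col7a1, the chain of the anchoring fibrils, had the largest difference, at 3.69, 4.61 and 3.69 CPM (counts scaled by library size) in the knockdown libraries against 1.42 and 1.01 in WT replicates 2 and 3. With WT replicate 1 left out, edgeR's quasi-likelihood test called 13 of the 30 members that could be tested, 7 higher and 6 lower in the knockdown, at a Benjamini-Hochberg adjusted p below 0.05. In that fit 34.3% of all 15152 genes tested were called (16.3% higher and 18.0% lower), against 43.3% of the members, and this difference was not tested. With the trend over GC content removed from each library, 9 of the 13 member calls remained. Those of Col4a2 (edgeR adjusted p = 0.0799), Lamb2 (0.251), Col5a1 (0.114) and Col27a1 (0.275) were lost. In TPM (counts scaled by gene length and by library), limma-trend did not call Lamb2, Col5a1 or Col27a1. Over all 6 libraries the same test called 0 of 28 members and 0.0% of 14679 genes, the targeted gene Acsl5 included (adjusted p = 0.0619). At an unadjusted p below 0.05 that fit had 4 of 28 members, against 16.0% of all genes. DESeq2 called 2 members over the 6 libraries, Col7a1 higher (adjusted p = 1.2e-05) and Col8a1 lower (adjusted p = 0.0256), in a fit that called 7.68% of all genes. Over the 6 libraries limma-voom called 0 members and 0.0613% of all genes, and limma-trend called 0 members. With the trend over gene length removed, edgeR called 4 of 28 members over 6 libraries, against 5.99% of all genes. The CPM of the 2 groups did not overlap for 12 of 28 members over 6 libraries, 42.9% against 34.3% of all genes, and for 19 of 30 members without WT replicate 1, 63.3% against 59.8%. In bulk RNA, fewer cells that make a transcript and less of it per cell cannot be told apart.

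The libraries held 21794244 to 29996194 estimated counts. Acsl5 itself had 342.4, 265.2 and 270.2 CPM in the WT libraries and 49.8, 55.6 and 57.2 in the knockdown libraries. The knockdown mean was 18.5% of the WT mean, with no overlap between the groups (exact two-sided permutation test over 20 assignments, p = 0.1, the smallest p this design allows). The edgeR test over 6 libraries did not call Acsl5 (log2 fold change -2.43, adjusted p = 0.0619). Without WT replicate 1 it was called (-2.32, adjusted p = 5.95e-08). A gene not called over 6 libraries is therefore not shown to be unchanged. The members took 0.11% of the counts of WT replicate 1 and 0.298% to 0.314% in the other 5 libraries. Markers of duct epithelium (Krt7, Krt8, Krt18, Krt19, Epcam and Cdh1) summed to between 7850 and 9053 TPM (counts scaled by gene length and by library) in each library.

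WT replicate 1 stood apart through gene length, which bears on every result here because collagen and laminin transcripts are long. The 28 members tested over 6 libraries were 3949 to 11511 bases long in the deposited table, and 15 of them belonged to the longest 10% of all genes tested (5989 bases or more). For the middle gene of that longest 10%, log2 CPM in WT replicate 1 was 1.05 below the mean of WT replicates 2 and 3 (a difference of -1.05), whereas the median difference was 1.20 in the shortest 10% and -0.03 over all genes tested. For the members the median difference was -0.94, with -0.81 for 7 fibrillar collagens and -1.14 for 11 basement membrane genes. Of the 28 members, 25 had fewer CPM in WT replicate 1 than in both other WT libraries, and 23 had fewer than in any other library. For some called members WT replicate 1 differed less from the other WT libraries than for the median member. Among those named here, these were Col7a1 (0.26), Col27a1 (0.06), Lamb1 (-0.4), Col8a1 (-0.47) and Col3a1 (-0.6). The results that follow are therefore given with and without this library, and the cause of its difference was not tested.

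**Figure D1:**
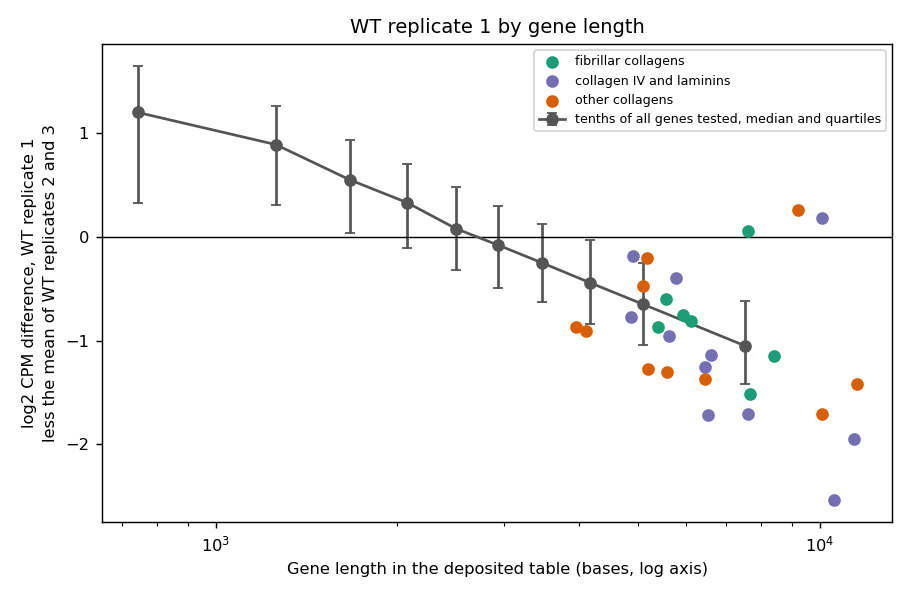
Difference in log2 CPM between WT replicate 1 and the mean of WT replicates 2 and 3 (vertical axis) against the gene length in the deposited table in bases (log axis). Grey points are medians of 10 equal groups of all genes tested by length, with quartile bars, and coloured points are the 28 members tested; the medians run from 1.20 in the shortest group to -1.05 in the longest, and most members lie below 0.

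Levels per length, in TPM, ranged widely among the members. The order of mean TPM over the 6 libraries began with Lama5 (227.7), the laminin alpha 5 chain, followed by the endostatin precursor Col18a1 (113.7), the laminin gamma 1 chain Lamc1 (104.7) and the laminin beta 1 chain Lamb1 (74.9). Col3a1 (57.9), the only chain of collagen III, and Col4a1 (56.7) came next. Below these in mean TPM were Col4a2 (30.9), Lamb2 (27.8), Col6a1 (21.1), Col5a1 (19.6), Col16a1 (11.4) and Col6a2 (10.9). The TPM range of each of these genes over the 6 libraries overlapped that of the next in the order, although Lama5 was above Col18a1 within every library. In all, 13 members, 8 collagens and 5 laminins, had a mean of at least 5 TPM. Col1a1 had a mean of 2.45 TPM, and its partner in collagen I, Col1a2, had no more than 3 counts in any library. Of the 25 members that passed the filter on low counts in neither fit, the highest mean was 0.152 TPM (Col20a1), and 5 members (Col5a2, Col19a1, Col6a4, Col6a5 and Col13a1) had 0 counts in all 6 libraries. A count of 0 allows up to 3 counts in a library, which in the smallest library is 0.138 CPM, counting error only.

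**Figure D2:**
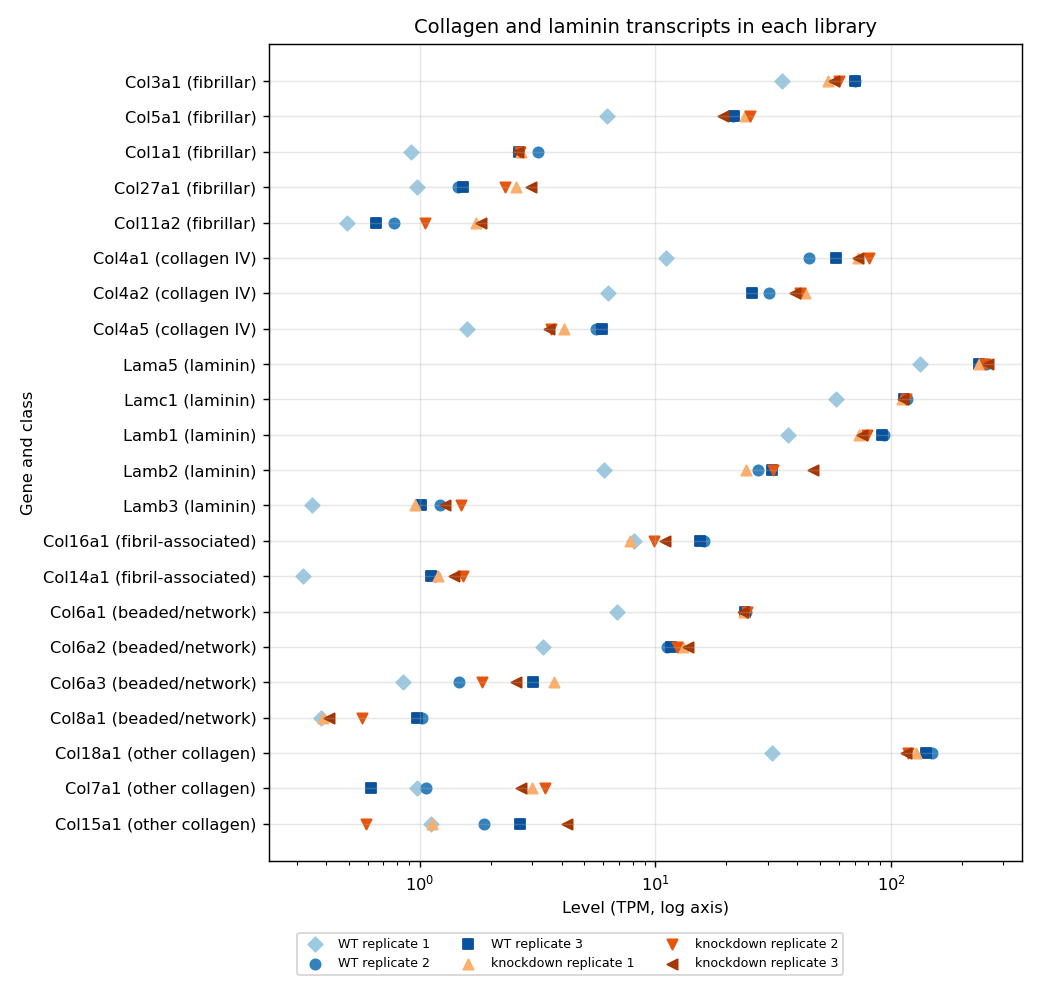
Level of the named members with a mean of at least 1 TPM, or called without WT replicate 1, in TPM (log axis), with 1 symbol per library. WT libraries are blue and knockdown libraries orange; WT replicate 1 (pale diamond) lies to the left of the other libraries for most genes, and Lama5 has the highest levels, 132.3 TPM in WT replicate 1 and 236.0 to 258.5 TPM in the other 5.

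Among the fibrillar collagens, 7 of 11 could be tested, and the called ones did not share a direction without WT replicate 1. In that fit 2 were higher, 1 was lower and 4 were not called, where 34.3% of all genes were called (16.3% higher, 18.0% lower). Col3a1, the most abundant fibrillar member, had 164.1, 255.2 and 242.8 CPM in WT and 203.9, 217.5 and 203.0 CPM in the knockdown libraries. All 3 knockdown libraries lay below WT replicates 2 and 3 and above WT replicate 1. Without WT replicate 1 the log2 fold change was -0.27 (SE 0.0504, edgeR adjusted p = 0.00203), and with it -0.08 (adjusted p = 0.843). Col5a1, the chain of collagen V that regulates fibril diameter, had 29.6, 67.7 and 63.7 CPM in WT and 94.0, 84.3 and 78.5 CPM in the knockdown, every knockdown library being above every WT library. Its log2 fold change was 0.36 without WT replicate 1 (SE 0.0715, adjusted p = 0.00328) and 0.67 over 6 libraries (adjusted p = 0.362). The rise of Col5a1 was not seen in TPM, where the groups overlapped (21.4 and 21.5 TPM in WT replicates 2 and 3 against 24.1, 25.2 and 19.4 TPM in the knockdown, log2 fold change 0.08, limma-trend adjusted p = 0.663), and its call was lost without WT replicate 3 (adjusted p = 0.0564) and with the trend over GC content removed (adjusted p = 0.114).

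Col27a1, a fibrillar collagen known from cartilage, was a minor transcript (mean 1.97 TPM), with 5.62, 5.28 and 5.52 CPM in WT and 7.98, 6.45 and 9.74 CPM in the knockdown. The groups did not overlap, and here WT replicate 1 resembled the other WT libraries. The gene is 7612 bases long, and in the longest 10% of genes the median difference of WT replicate 1 was -1.05. Over 6 libraries the log2 fold change of Col27a1 was 0.56 (adjusted p = 0.26). It fell to 0.24 with the length trend removed (edgeR adjusted p = 0.684) and to -0.11 with the length and GC trends removed (0.879). Without WT replicate 1 it was also 0.56, and called (SE 0.18, adjusted p = 0.0335), and 0.65 with the length trend removed (adjusted p = 0.0214). The call was lost without WT replicate 2 (adjusted p = 0.173), WT replicate 3 (0.149) or knockdown replicate 3 (0.106), with the GC trend removed (0.275), with limma-voom (0.074), without robust estimation (0.0517) and in TPM with a pseudocount of 1 (0.0675). Col1a1, a chain of collagen I, did not differ detectably, with 6.77, 12.5 and 10.4 CPM in WT and 10.8, 10.3 and 10.1 CPM in the knockdown (log2 fold change -0.15 without WT replicate 1, SE 0.118, adjusted p = 0.375). Removing the GC trend gave Col1a1 a log2 fold change of -0.41 (adjusted p = 0.0175). Col11a2 (0.24), Col5a3 (-0.25) and Col11a1 (-0.05) were not called.

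Of the 6 collagen IV genes, 4 could be tested, and without WT replicate 1 the common pair Col4a1 and Col4a2 rose while Col4a5 fell. Col4a1 and Col4a2 form the trimer found in nearly all basement membranes, and they lie head to head on mouse chromosome 8, whereas Col4a5, a chain of the trimers of kidney, lung and skin basement membranes, lies on the X chromosome. The RefSeq promoter windows of the 3 genes (build GRCm38.p6, 250 bases before to 50 bases after a transcription start) are shown because Col4a1 and Col4a2 start close together. The part of the promoters in the changes was not tested. The windows are chr8:11312777-11313076 (minus strand), chr8:11312555-11312854 (plus strand) and chrX:141475169-141475468 (plus strand), and capitals mark the CCAAT box, named by its letters, and the GC box, GGGCGG, on either strand.
Col4a1: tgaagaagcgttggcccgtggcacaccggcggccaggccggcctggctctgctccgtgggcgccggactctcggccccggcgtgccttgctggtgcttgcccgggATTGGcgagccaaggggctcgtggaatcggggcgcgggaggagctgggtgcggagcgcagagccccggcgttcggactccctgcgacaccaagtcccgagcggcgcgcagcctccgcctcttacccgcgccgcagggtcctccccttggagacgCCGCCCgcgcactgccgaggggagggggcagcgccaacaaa
Col4a2: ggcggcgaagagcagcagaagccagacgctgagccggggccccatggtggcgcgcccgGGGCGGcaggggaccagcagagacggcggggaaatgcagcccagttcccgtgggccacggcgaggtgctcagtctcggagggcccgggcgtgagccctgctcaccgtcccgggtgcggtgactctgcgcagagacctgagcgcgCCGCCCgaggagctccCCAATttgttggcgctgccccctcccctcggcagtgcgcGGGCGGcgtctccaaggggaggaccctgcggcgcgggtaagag
Col4a5: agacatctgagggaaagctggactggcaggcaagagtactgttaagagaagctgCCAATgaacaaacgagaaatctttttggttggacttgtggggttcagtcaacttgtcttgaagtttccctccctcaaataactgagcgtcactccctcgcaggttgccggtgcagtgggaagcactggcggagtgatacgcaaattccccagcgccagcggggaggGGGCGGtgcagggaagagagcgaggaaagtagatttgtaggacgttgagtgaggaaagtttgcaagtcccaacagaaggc
The starts of Col4a1 and Col4a2 are 21 bases apart, and their windows share 78 bases read from opposite strands. Col4a5 also has a neighbour that starts on the other side, Col4a6, whose start is 1343 bases away and which had 3 counts in WT replicate 2 and 0 in the other libraries. In the Col4a1 window CCAAT begins 145 bases before the start and a GC box 9 bases after it. The Col4a2 window has CCAAT 32 bases before the start and GC boxes 192 and 48 bases before and 7 bases after it, the last being the Col4a1 GC box read from the other strand. Col4a5 has CCAAT 196 and a GC box 30 bases before its start. Of all 32851 promoter windows given by RefSeq, 37.4% hold CCAAT and 35.7% a GC box, and of the 44 windows found for 40 of the members 31.8% and 59.1% do. The AP-1 letters TGANTCA, which contain neither of the other motifs, are in none of the windows printed, in 7.81% of all windows and in 2.27% of the members' windows.

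Col4a1 had 88.4, 195.6 and 194.6 CPM in WT and 267.6, 249.5 and 241.7 CPM in the knockdown. Col4a2 had 50.6, 130.5 and 110.9 CPM in WT and 185.8, 163.9 and 164.9 CPM in the knockdown. For both genes every knockdown library was above every WT library, with WT replicate 1 far below the rest. Without WT replicate 1, the knockdown mean of Col4a1 was 129.6% of the WT mean (253.0 ± 13.3 CPM, SD, n = 3, against 195.1 ± 0.712, n = 2), which is 0.36 in log2 (SE 0.0491, edgeR adjusted p = 3.67e-04). That of Col4a2 was 142.1% (log2 fold change 0.49, SE 0.0813, adjusted p = 0.00254). Over 6 libraries the log2 fold changes were 0.66 and 0.82 and neither was called (adjusted p = 0.362 and 0.323). Both values fell when the GC trend was removed, to 0.16 for Col4a1 (adjusted p = 0.0287) and to 0.14 for Col4a2, whose call was then lost (adjusted p = 0.0799). The strand setting of the counting is not given in the sources used here, so reads from the short overlap of these genes at their starts cannot be assigned to one of them with certainty.

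Col4a5 had 6.83, 22.2 and 23.2 CPM in WT and 15.6, 13.6 and 13.2 CPM in the knockdown. The knockdown libraries were all below WT replicates 2 and 3, while WT replicate 1 was lower still. Without WT replicate 1 the knockdown mean was 62.3% of the WT mean, or -0.70 in log2 (SE 0.097, adjusted p = 3.91e-04), and with it -0.30 (adjusted p = 0.739). Within each library, which cancels its depth, Col4a1 had 7.04, 8.05 and 9.89 times the TPM of Col4a5 in WT and 17.7, 22.3 and 20.5 times in the knockdown. In TPM these ratios did not overlap between the groups, with WT replicate 1 on the WT side. In counts WT replicate 1 lay nearer to the knockdown than the other WT libraries did. Counts of Col4a1 and Col4a5 were 1619 and 125 there, 4413 and 500 in WT replicate 2, and 5996 and 714 in WT replicate 3. In the knockdown libraries they were 6375 and 371, 6767 and 369, and 6553 and 358. The trend over GC content is not removed from these ratios (Col4a1 57.7% GC, Col4a5 51.5%). Col4a4 was near the limit of detection (0.162 to 0.504 CPM) and was not called.

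The called laminins did not share a direction. Of 11 genes, 8 could be tested without WT replicate 1, and 2 were higher, 1 was lower and 5 were not called. That fit called 34.3% of all genes tested (16.3% higher and 18.0% lower). Lamb1, the beta 1 chain of most embryonic and many adult laminins, had 282.4, 376.1 and 371.7 CPM in WT and 285.0, 299.8 and 284.8 CPM in the knockdown. The knockdown libraries were close to WT replicate 1 and clearly below WT replicates 2 and 3. Its log2 fold change was -0.38 without WT replicate 1 (SE 0.0451, adjusted p = 1.52e-04) and -0.24 with it (adjusted p = 0.482). Lamb2, the beta 2 chain, had 41.6, 84.5 and 77.7 CPM in WT and 104.3, 97.5 and 111.3 CPM in the knockdown, so the groups did not overlap. Its log2 fold change was 0.35 without WT replicate 1 (SE 0.0676, adjusted p = 0.00282) and 0.62 with it (adjusted p = 0.344). The Lamb2 call was lost without WT replicate 3 (adjusted p = 0.0559), with the GC trend removed (log2 fold change 0.09, adjusted p = 0.251) and in TPM, in which WT replicates 2 and 3 (27.3 and 31.1 TPM) and the knockdown (24.2, 31.6 and 46.8 TPM) overlapped (limma-trend adjusted p = 0.685). Lamb1 kept its call in each of the alternatives tried without WT replicate 1.

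Lama5, the member with the highest TPM and the alpha chain of most epithelial and vascular laminins, had 195.5, 784.7 and 729.4 CPM in WT and 896.3, 842.3 and 800.5 CPM in the knockdown. In CPM the knockdown libraries lay above all WT libraries, but the margin over WT replicates 2 and 3 was small (log2 fold change 0.14, SE 0.0532, adjusted p = 0.0577). It was called higher with library totals (adjusted p = 0.0237), no filter (0.00278), a filter at 1 CPM (0.0359), the replicate block (0.0359), the length trend removed (0.0015), and without knockdown replicate 1 (0.026) or 3 (0.0384). It was called lower with the GC trend removed (log2 fold change -0.17, adjusted p = 0.0163). Over 6 libraries the value was 0.57 (adjusted p = 0.579). In TPM WT replicates 2 and 3 (253.4 and 236.0 TPM) and the knockdown (236.3, 249.7 and 258.5 TPM) overlapped, with a log2 difference of 0.02 (pseudocount 0.1). Lamc1, the gamma 1 chain shared by most laminins, had 131.3, 434.8 and 426.0 CPM in WT and 428.3, 426.5 and 405.9 CPM in the knockdown. Apart from WT replicate 1 these libraries were almost level (log2 fold change -0.05, SE 0.0433, adjusted p = 0.408). Lamb3, a beta chain of epithelial laminins, was not called (-0.16, adjusted p = 0.595). Lama3, an alpha chain of epithelial laminins, had 0.218, 1.77 and 1.72 CPM in WT and 0.966, 1.14 and 1.18 CPM in the knockdown, and was not called (-0.68, adjusted p = 0.0946). Lama4 was not called either (-0.14, adjusted p = 0.894).

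Ratios between chains within a library do not depend on its depth, but the trend over GC content is not removed from them (Lamb1 52.5% GC, Lamb2 58.8%). Lamb1 had 6.79, 4.45 and 4.78 times the counts of Lamb2 in WT and 2.73, 3.08 and 2.56 times in the knockdown. The count ratios did not overlap, whether or not WT replicate 1 was included. In TPM the ratios were 6.04, 3.41 and 2.95 in WT and 3.03, 2.52 and 1.6 in the knockdown, and there the first knockdown library exceeded WT replicate 3. Col4a1 had 1.75, 1.5 and 1.75 times the counts of Col4a2 in WT and 1.44, 1.52 and 1.47 times in the knockdown, which overlapped. No test is given for these ratios, because the pairs were picked with the members' values known.

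**Figure D3:**
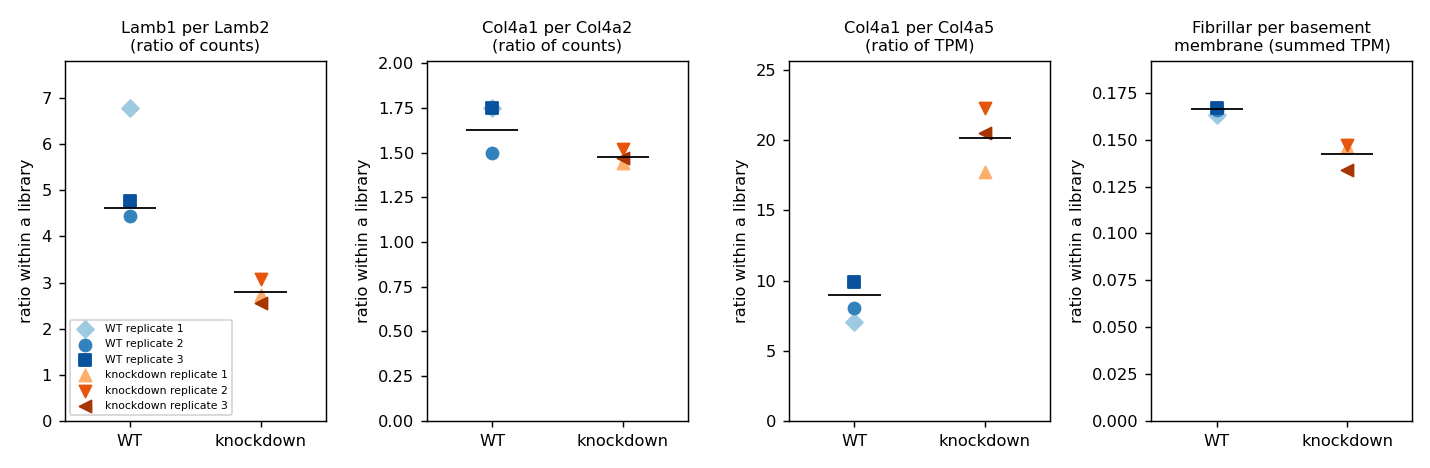
Ratios within each library for Lamb1 and Lamb2 counts, Col4a1 and Col4a2 counts, Col4a1 and Col4a5 TPM, and summed fibrillar and basement membrane TPM (vertical axes start at 0). Each symbol is 1 library, and lines are means of the knockdown libraries and of WT replicates 2 and 3; the Lamb1 to Lamb2 ratio runs from 4.45 to 6.79 in WT and from 2.56 to 3.08 in the knockdown.

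Of the fibril-associated collagens, which coat fibrils and link them to other matrix, 3 of 9 could be tested. Without WT replicate 1, 1 of these was called, in a fit that called 34.3% of all genes. Col16a1 had 10.98, 29.2 and 23.99 CPM in WT and 16.5, 17.0 and 17.3 CPM in the knockdown. The knockdown libraries were tightly grouped below WT replicates 2 and 3 and above WT replicate 1. The log2 fold change was -0.66 without WT replicate 1 (SE 0.101, adjusted p = 6.74e-04) and -0.34 with it (adjusted p = 0.631), and removing the GC trend made it -1.06 (adjusted p = 3.73e-05). Col14a1 (0.25) and Col12a1 (-0.44) were not called.

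Collagen VI, the beaded filament that surrounds cells, is built from Col6a1, Col6a2 and a longer chain such as Col6a3. Col6a1 had 34.3, 65.2 and 63.8 CPM in WT and 64.6, 63.9 and 62.1 CPM in the knockdown, or -0.04 in log2 without WT replicate 1 (SE 0.0518, adjusted p = 0.62). Col6a2, also on chromosome 10, had 16.3, 29.4 and 30.4 CPM in WT and 35.2, 31.7 and 35.6 CPM in the knockdown. Its knockdown libraries were all above the WT libraries, with a log2 fold change of 0.18 that was not called (SE 0.0764, adjusted p = 0.101). Col6a3 likewise had every knockdown library above every WT library, at 1.69 to 5.94 CPM in WT and 7.05 to 7.86 CPM in the knockdown (log2 fold change 0.36, adjusted p = 0.0654). Col8a1, a network collagen of vessel walls and of the cornea, had 2.4, 3.46 and 3.28 CPM in WT and 1.26, 1.88 and 1.36 CPM in the knockdown. All knockdown libraries were below all WT libraries, WT replicate 1 included. Its knockdown mean was 44.6% of the mean of WT replicates 2 and 3 (log2 fold change -1.17, SE 0.25, adjusted p = 0.00454), and over 6 libraries the log2 fold change was -1.02 (adjusted p = 0.18).

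Col18a1, a heparan sulphate-carrying collagen of basement membranes whose tail is released as endostatin, was the most abundant collagen transcript per length. It had 194.1, 495.7 and 460.2 CPM in WT and 338.5, 337.3 and 329.9 CPM in the knockdown. The knockdown libraries were nearly identical to one another, below WT replicates 2 and 3 and above WT replicate 1. The knockdown mean was 70.1% of that of WT replicates 2 and 3 (335.2 ± 4.66 CPM, SD, n = 3, against 477.9 ± 25.1, n = 2), or -0.53 in log2 (SE 0.0464, edgeR adjusted p = 2.82e-05). Over 6 libraries it was -0.19 (adjusted p = 0.796). In TPM the WT libraries stood at 31.4, 149.8 and 140.7 and the knockdown libraries at 127.2, 118.0 and 115.5, so that the order of the groups was the same there. Removing the GC trend made the log2 fold change without WT replicate 1 -0.89 (adjusted p = 2.36e-06).

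Col7a1, whose product forms the anchoring fibrils that tie epithelial basement membranes to the stroma, rose more than any other member in the fit without WT replicate 1. It had 1.47, 1.42 and 1.01 CPM in WT and 3.69, 4.61 and 3.69 CPM in the knockdown. The 3 WT libraries were alike and all lay below the knockdown libraries. The knockdown mean was 329.7% of the mean of WT replicates 2 and 3 (log2 fold change 1.72, SE 0.252, adjusted p = 5.62e-04), and with WT replicate 1 the log2 fold change was 1.63 (SE 0.246, unadjusted p = 4.75e-04, adjusted p = 0.095). With the GC trend removed, the log2 fold change without WT replicate 1 was 1.31 (edgeR adjusted p = 0.00321). Over 6 libraries with the length and GC trends removed it was 0.8 (adjusted p = 0.345). The level of Col7a1 stayed low, at 0.62 to 1.06 TPM in WT and 2.7 to 3.39 TPM in the knockdown. The RefSeq promoter window of this gene, chr9:108953336-108953635 (plus strand, GRCm38.p6), is printed because Col7a1 had the largest difference, and capitals mark CCAAT, which begins 249 bases before the start, and a GC box 61 bases before it, on either strand.
Col7a1: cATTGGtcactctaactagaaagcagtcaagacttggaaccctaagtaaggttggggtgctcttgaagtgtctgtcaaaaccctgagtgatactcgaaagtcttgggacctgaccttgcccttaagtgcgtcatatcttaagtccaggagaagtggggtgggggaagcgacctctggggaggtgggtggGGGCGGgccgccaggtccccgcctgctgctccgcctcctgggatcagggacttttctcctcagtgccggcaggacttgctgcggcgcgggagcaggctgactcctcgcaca
Both motifs are also in the windows of Col4a1, Col4a2 and of Col4a5, which fell. Col15a1, the closest relative of Col18a1, was not called (-0.42, adjusted p = 0.306), nor was Col28a1 (-0.92, adjusted p = 0.217).

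**Figure D4:**
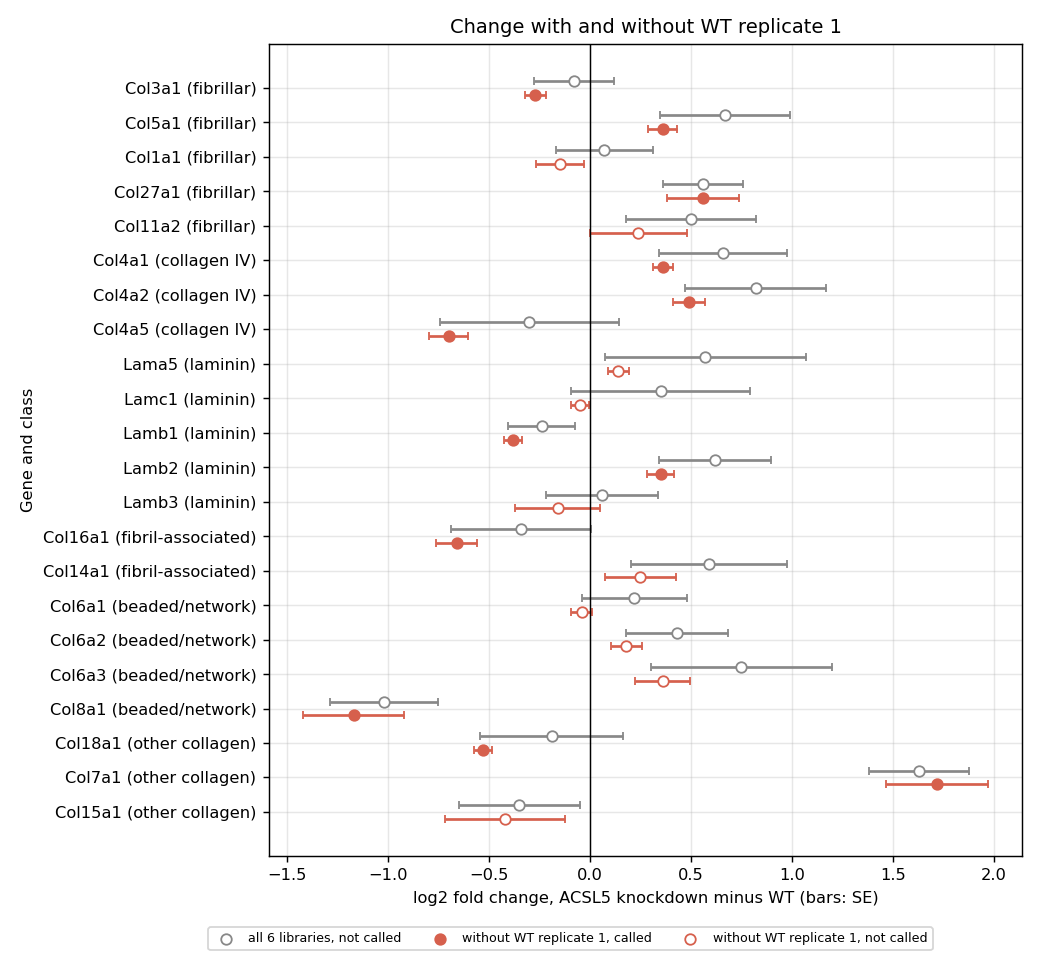
Fitted log2 fold change, ACSL5 knockdown minus WT, with SE bars, for the named members with a mean of at least 1 TPM or called without WT replicate 1. Grey circles use all 6 libraries and none is called, red circles leave out WT replicate 1 and are filled where called; leaving that library out shortens most bars and moves Col3a1 from -0.08 to -0.27 and Lama5 from 0.57 to 0.14.

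Set side by side, fibrillar and basement membrane genes did not separate by direction. The median log2 fold change was 0.32 for 7 fibrillar and 0.35 for 11 basement membrane genes over 6 libraries, against -0.02 for all genes tested. Without WT replicate 1 it was -0.05 for 7 fibrillar and 0.05 for 12 basement membrane genes, against -0.01 for all genes. Within the basement membrane group the median was 0.42 for 4 collagen IV genes and -0.09 for 8 laminins. In summed TPM, fibrillar collagens amounted to 0.163, 0.166 and 0.167 of the basement membrane genes in WT and to 0.146, 0.147 and 0.134 in the knockdown. In TPM the groups did not overlap in this ratio, and WT replicate 1 did not stand apart from the other WT libraries in it. The ratio is given in TPM only, and WT replicate 1 differed between the units. There Lama5 had 132.3 TPM against 253.4 and 236.0 in WT replicates 2 and 3, but 195.5 CPM against 784.7 and 729.4. Col3a1 had 34.4 TPM against 70.6 and 70.5, and 164.1 CPM against 255.2 and 242.8. The basement membrane sum of the ratio left out Col18a1, which had 31.4 TPM in WT replicate 1 and 149.8 and 140.7 TPM in the other WT libraries. Col3a1 made up most of the fibrillar sum (70.6 of 98.6 TPM in WT replicate 2). Collagen IV made up 5.28%, 8.99% and 10.2% of all collagen and laminin TPM in WT and 13.96%, 14.03% and 12.8% in the knockdown, again without overlap, whereas the laminin share was 67.96%, 56.9% and 55.97% in WT and 54.8%, 56.3% and 58.1% in the knockdown, with overlap. Summed over all members, TPM was 361.5 in WT replicate 1, 901.2 and 884.1 in the other WT libraries and 856.8 to 896.0 in the knockdown, which overlapped once WT replicate 1 was left out.

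Base composition moved with these results. In the fit without WT replicate 1 the median log2 fold change of all genes ran from -0.16 at the AT-rich end (the 10% of genes lowest in GC, median 39.0% GC) to 0.31 at the GC-rich end (the highest 10%, median 59.3% GC). The 7 members called higher had a median GC content of 58.8% (52.7% to 61.6%), the 6 called lower 52.5% (46.8% to 61.4%), and all genes tested 49.2%. With the GC trend taken out of each library 13 members were again called, now 3 higher and 10 lower, and 9 of them were among the 13 called before, in a fit that called 31.6% of all genes. In TPM, limma-trend tested 22 members and called 8, 3 higher and 5 lower, against 17.8% of all genes with a pseudocount of 1 and 18.3% with 0.1. Of the 13 members, 8 were called in every alternative tried without WT replicate 1 that gave them a value: the 6 lower genes Col3a1, Col4a5, Lamb1, Col16a1, Col8a1 and Col18a1, and the 2 higher genes Col4a1 and Col7a1. The part of GC content in the differences was not tested beyond this adjustment.

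Genes for the making and handling of collagen moved in both directions without WT replicate 1, and edgeR called 0 of them over 6 libraries, where 1 of 20, 2 of 8, 1 of 11, 3 of 14 and 3 of 9 in the order given here had an unadjusted p below 0.05, against 16.0% of all genes. The called counts below, from the fit without WT replicate 1, stand against 34.3% of all genes (16.3% higher, 18.0% lower). Of 20 genes for collagen modification and export, all tested, 2 rose, 1 fell and 17 were not called, with a median log2 fold change of 0.08. Serpinh1, the collagen chaperone of the endoplasmic reticulum, had 118.9, 128.4 and 120.3 CPM in WT and 189.1, 188.4 and 190.2 CPM in the knockdown (log2 fold change 0.59, adjusted p = 1.96e-05), with WT replicate 1 level with the other WT libraries. Fkbp10, a prolyl isomerase that acts on procollagen, was higher by 0.30 (adjusted p = 0.00125, lost with the GC trend removed at 0.0657). Plod2, a lysyl hydroxylase, fell by 0.37 on the log2 scale (adjusted p = 0.00142), and P4hb, a subunit of prolyl hydroxylase and the most abundant of the list, was 0.04 (adjusted p = 0.556).

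Of 14 genes for collagen processing and crosslinking 8 were tested, 2 rose and 3 fell (median -0.12). Pcolce, an enhancer of procollagen C-proteinase, was higher (0.35, adjusted p = 8.59e-04), and Sparc, a collagen-binding glycoprotein, was lower (-0.39, adjusted p = 1.34e-04). The other calls named here depended on single libraries. Loxl3, a lysyl oxidase, was higher by 0.39 (adjusted p = 0.02), lost without WT replicate 2 (0.177), WT replicate 3 (0.0518) or knockdown replicate 3 (0.0642). Bmp1, the procollagen C-proteinase, was -0.27 (adjusted p = 0.034), lost without WT replicate 2 (0.259), WT replicate 3 (0.0694), knockdown replicate 2 (0.0509) or knockdown replicate 3 (0.0639).

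Of 16 other basement membrane proteins 11 were tested, 4 rose and 3 fell (median 0.10). Agrn, the heparan sulphate proteoglycan agrin, had 32.3, 75.3 and 71.5 CPM in WT and 53.99, 53.8 and 51.6 CPM in the knockdown (log2 fold change -0.48, adjusted p = 1.25e-04). Fbln2, a fibulin, was higher (0.41, adjusted p = 0.00193). Tinagl1, a matricellular protein of basement membranes, was 0.27 (adjusted p = 0.0217), turned to -0.02 with the GC trend removed, and lost its call without WT replicate 3 (0.187) or knockdown replicate 3 (0.0633). Ntn4, a netrin that binds laminin gamma chains, was 0.42 (adjusted p = 0.0476), lost without WT replicate 2 (0.209), WT replicate 3 (0.199), knockdown replicate 2 (0.114) or knockdown replicate 3 (0.134).

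Receptors of collagens and laminins also divided. Of 17, 14 were tested, 3 rose and 5 fell (median 0.08). Itga6, the laminin-binding integrin alpha 6 chain, had 307.5, 699.4 and 690.6 CPM in WT and 501.9, 478.1 and 468.3 CPM in the knockdown (log2 fold change -0.54, adjusted p = 1.48e-05 without WT replicate 1). Itga7, another laminin-binding alpha chain, had 10.6, 13.2 and 15.2 CPM in WT and 24.9, 29.1 and 26.9 CPM in the knockdown (0.91, adjusted p = 1.27e-04), and its groups did not overlap. Sdc1, the cell-surface proteoglycan syndecan 1, was higher (0.43, adjusted p = 0.00449), and Itga1, a collagen-binding chain, was -0.38 (adjusted p = 0.0138), lost without WT replicate 3 (0.148) or knockdown replicate 3 (0.0582). Of 17 fibril-binding matrix proteins 9 were tested, 4 rose and 4 fell (median 0.30). Prelp, a small leucine-rich proteoglycan that binds collagen, had 14.6, 19.2 and 19.4 CPM in WT and 49.1, 47.4 and 46.2 CPM in the knockdown (1.28, adjusted p = 2.06e-06). Thbs1 was higher (0.67) and its paralogue Thbs2 lower (-0.73, adjusted p = 0.00209), as were the proteoglycan Vcan (-0.68) and fibronectin, Fn1 (-0.25, adjusted p = 0.00169), the most abundant gene of that list. In TPM with a pseudocount of 1 (limma-trend), the calls of Thbs2 (adjusted p = 0.0877), Fn1 (0.059), Itga1 (0.347), Loxl3 (0.0801), Bmp1 (0.0822), Tinagl1 (0.158) and Ntn4 (0.173) were lost.

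Markers of other cell types that make collagen were low. The 9 markers of fibroblasts and stellate cells summed to 8.01 TPM in WT replicate 1 and to between 22.8 and 30.9 TPM in the other libraries, most of it Pdgfra, and Fap was listed at 0 in every library. Of the 5 that could be tested without WT replicate 1, Pdgfrb and Dpt rose and Pdgfra fell. The 5 endothelial markers summed to 0.08 to 0.12 TPM, and the 6 leukocyte markers to 3.55 to 8.49 TPM, nearly all of it Cd68, with Cd3e and Adgre1 listed at 0. The part of these markers in the collagen and laminin results was not tested.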

How the data were processed

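RNA of 3 WT and 3 ACSL5 knockdown libraries was extracted with TRIzol and sequenced on an Illumina instrument, per the labels' protocols. Tools listed per the submitters' processing notes, without roles, are DESeq2, StringTie, HISAT2 and fastp, and the builds listed are the human hg38 and GRCh38, although the gene identifiers in the files are of mouse. The sources used here do not give the tool behind each table or a strand setting. The authors deposited estimated counts per gene, not normalized and not all whole numbers, and TPM per gene, scaled by gene length and library.

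The expected counts were rounded to whole numbers and tested with edgeR 4.0.16 (R 4.3.3; filterByExpr, TMM, robust quasi-likelihood F test, Benjamini-Hochberg adjustment over all genes tested, called below 0.05), over 6 libraries and over the 5 without WT replicate 1. An SE is the absolute log2 fold change divided by the square root of F. CPM were scaled by TMM factors, and levels of different genes were compared in TPM. The members and lists, and the choice of the library left out, were made with earlier results of these data known. Every member that passed the filter is named, except 1 that is counted but not reported here by name, with values per library if its mean was at least 5 TPM or it was called; from each pathway list the most abundant gene and up to 4 called genes of largest change are named. The test was checked on simulated counts with known changes, which held no trend over gene length or GC content. Alternatives changed the threshold (0.01), scaling, filter, tool (DESeq2 1.42.0, limma 3.58.1), unit (log2 of TPM plus 1 or 0.1, for genes of mean 1 TPM or more), libraries, a replicate block, and removed lowess trends (span 0.3) over gene length, GC content or both from each library. GC content was known for 96.3% of genes tested.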

Additional observations from a re-analysis of the deposited data

How the results depend on the processing

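Over 6 libraries, where 0 members were called, DESeq2 called 2 (1127 of all 14679 genes) and removal of the length trend 4 (Col5a1, Col4a1 and Col4a2 higher, Col8a1 lower; 879 of all genes), and leaving out 1 library at a time gave 0 to 13, the 13 without WT replicate 1. The other alternatives over 6 libraries called 0. Without WT replicate 1, the 13 calls became 8 of 22 tested in TPM with either pseudocount and 9 to 15 with 1 more library left out, and lay between 11 and 15 in the other alternatives. No label says that replicate numbers pair the libraries. Same-numbered libraries had correlations of -0.115, 0.02 and -0.142 of their deviations from the group means. WT replicates 1, 2 and 3 correlated best with knockdown replicates 3 (0.161), 1 (0.108) and 1 (0.1). The WT mean includes WT replicate 1, which stands apart, so these values cannot decide whether WT replicates 2 and 3 pair with knockdown libraries. With a replicate block the test called 0 members over 6 libraries and 14 without WT replicate 1. The fibrillar median over 6 libraries (0.32) became 0.62 and 0.67 in TPM with pseudocounts of 1 and 0.1, 0.54 with the replicate block, -0.04 with the GC trend removed and -0.17 with both trends removed, and it ranged from -0.05 to 0.54 with 1 library left out. The basement membrane median over 6 libraries (0.35) became 0.14 with the length trend removed, 0.12 with both trends removed and 0.55 with limma-voom, and ranged from 0.05 to 0.60 with 1 library left out. Without WT replicate 1, the fibrillar median (-0.05) became 0.18 with limma-voom and ranged from -0.28 to 0.16 with 1 more library left out. The basement membrane median (0.05) became -0.03 with no filter, 0.13 in TPM with a pseudocount of 0.1, 0.15 with the length trend removed, -0.10 with the GC trend removed and -0.04 with both removed, and ranged from -0.13 to 0.23 with 1 more library left out. The median of all genes over 6 libraries moved to 0.26 and 0.30 in TPM. Single genes changed sign as follows. Over 6 libraries, in TPM with a pseudocount of 1, Col18a1 was 0.45, Lamb1 0.16 and Col3a1 0.04, and with 0.1 they were 0.46, 0.16 and 0.04. With the length trend removed Col1a1 was -0.09 and Lamb3 -0.06. With the GC trend removed Col1a1 was -0.21, Col11a2 -0.04 and Lamb3 -0.05. With both removed Col6a1 was -0.03, Col1a1 -0.39, Col11a2 -0.17, Lamb3 -0.18 and Col27a1 -0.11. With 1 library left out, Col18a1 ran from -0.53 to 0.04, Col3a1 from -0.27 to 0.04, Col6a1 from -0.04 to 0.38, Col1a1 from -0.15 to 0.28, Lamc1 from -0.05 to 0.60 and Lamb3 from -0.16 to 0.28. In the fit without WT replicate 1, Lamb3 was 0.08 and 0.13 in TPM with pseudocounts of 1 and 0.1, and Lamc1 was 0.04 with the length trend removed. With the GC trend removed Lama5 was -0.17, Col11a2 -0.26, P4hb -0.02 and Tinagl1 -0.02. With both removed they were -0.07, -0.21, -0.02 and -0.04. The cause of these changes was not tested. With 2 WT libraries or 1, the spread rests on few samples, and 1 WT library left alone is taken to vary as the knockdown libraries do. The 25 members left untested had means of at most 0.152 TPM.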
